A study of Rattus norvegicus with 44 samples.

Results

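Nickel 400 µM was compared directly with cadmium 1.2 µM, the highest concentration of each metal, in 8 of the 44 arrays of the series: 4 arrays of cells given nickel chloride and 4 of cells given cadmium chloride. The cells were H4-II-E-C3, an established rat hepatoma line, exposed for 24 h in serum-free medium, and both concentrations were chosen by the study at the same effect on viability. The 8 control arrays held RNA of unexposed cells of the same line, 2 arrays for each of 4 replicates. Nickel 40 and 140 µM and cadmium 0.2 and 0.55 µM were used only to follow genes over concentration. As 1 hepatoma line without other liver cells, the model lacks the tissue around the hepatocyte. Of 7 hepatocyte marker genes on the array 6 were tested, albumin among them with a mean log2 level of 14.24 in nickel arrays, 14.39 in cadmium arrays and 14.55 in control arrays, while Apoa1 was too low to be tested. No macrophage or endothelial marker was high enough to be tested. Of 6 stellate or fibroblast markers 1 was tested, Acta2, with a mean of 6.75 in nickel, 6.63 in cadmium and 6.45 in control arrays.

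The arrays were assigned to conditions by an order of the sample titles in which the 4 titles of repeated arrays stand last. In this order the condition means reproduced a published list of 992 probe sets to within 7.5e-06 log2 units, whereas with the titles as deposited the median discrepancy was 0.1643 and the largest 4.318. Only 2 of the 4 nickel arrays (replicates 1 and 2) and 1 of the 4 cadmium arrays (replicate 1) have the same condition in both orders. With the titles as deposited, limma called 0 probe sets different between the metals, although 3459 had an unadjusted p under 0.05. The 938 tested probe sets of the list that served to check the order hold 303 of the 526 calls given below and are printed with no p-value. Their calls, standard errors and intervals describe the fit and support nothing. Estimates from a fit that keeps the 2 nickel arrays and the 1 cadmium array of undisputed condition are given beside the main results. They are given with no test, since the single cadmium array is assumed to vary like the other groups. They are adjusted for replicate number and are not plain differences between these arrays. Nickel replicates 1 and 2 lay farthest from the controls. The SD of their difference over tested probe sets was 0.566 and 0.461, against 0.310 and 0.378 in replicates 3 and 4. Larger differences in these arrays are therefore no added support for the main results.

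Nickel and cadmium are both toxic divalent metals, but their best known targets differ. Nickel can replace or deplete iron in the prolyl hydroxylases that mark hypoxia-inducible factor (HIF) for destruction, so that HIF target genes come on in the presence of oxygen. Cadmium binds thiols, displaces zinc and is a classical inducer of metallothioneins and of the heat shock response. Both are known to cause oxidative stress.

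Of 15521 tested probe sets, 526 differed between the metals (3.39%), 245 higher in nickel (1.58%) and 281 lower in nickel (1.81%). A probe set was called at a Benjamini-Hochberg adjusted p of at most 0.001 and a difference of at least 1.8-fold in a limma fit over all conditions. Outside the list used to check the order, 223 of 14583 were called (1.53%), 101 higher in nickel (0.693%) and 122 lower (0.837%). The 4 nickel and 4 cadmium arrays did not overlap for 485 of the 526 called probe sets, as against 26.8% of all tested probe sets. With 1 probe set per gene, 316 of 8940 genes were called (3.53%), 103 higher in nickel (1.15%) and 213 lower (2.38%), and the median difference over all of these genes was −0.08 on the log2 scale. The place of the control mean between the metals was counted as a description. For the 245 probe sets higher in nickel it lay nearer to the cadmium mean in 210 (85.7%), that is, nickel was the metal that lay farther from the controls. The 281 lower in nickel were split evenly, 144 (51.2%) with the control mean nearer to nickel and 137 (48.8%) with it nearer to cadmium. Against controls, 476 probe sets were called in nickel (3.07%) and 262 in cadmium (1.69%), with the same controls in both.

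**Figure D1:**
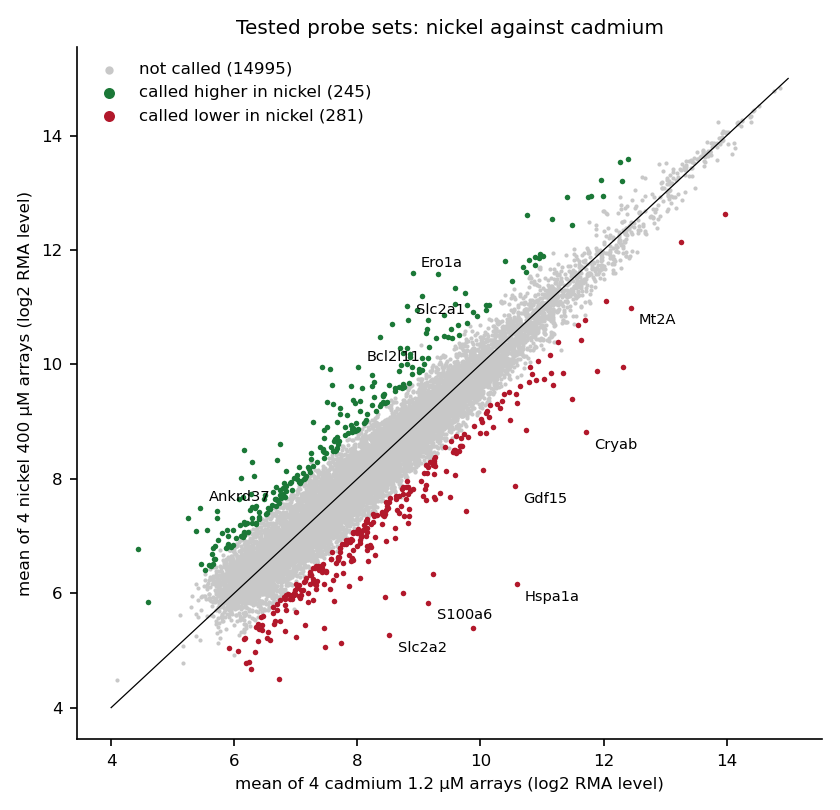
Mean log2 RMA level of each tested probe set over the 4 nickel 400 µM arrays (vertical axis) against the 4 cadmium 1.2 µM arrays (horizontal axis), with the line of equality. The 245 probe sets called higher in nickel lie above the line and the 281 called lower lie below it, Hspa1a, S100a6 and Slc2a2 farthest among the named genes.

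The 4 nickel arrays were less alike than the 4 cadmium arrays. The median R2 of an array with the others of its group was 0.9015 to 0.9483 in nickel and 0.9716 to 0.9756 in cadmium. The SD of the difference from the controls of the same replicate number, over tested probe sets, was 0.566, 0.461, 0.310 and 0.378 in nickel replicates 1 to 4, and 0.329 to 0.377 in cadmium. Nickel replicate 4 was a repeated array made from the same RNA. Without it 630 probe sets were called, 479 of them among the 526.

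Many genes of glucose uptake and glycolysis were higher in nickel. Of 18 tested genes, 9 of them in the list used to check the order, 11 were higher in nickel than in cadmium and none lower. Of all genes 1.15% were higher. The list median was 1.04 on the log2 scale, 0.85 for nickel over controls and −0.09 for cadmium over controls. Slc2a1, the glucose transporter GLUT1, had log2 levels of 11.27, 11.02, 10.46 and 10.38 in nickel replicates 1 to 4, against 8.88, 8.72, 8.87 and 8.81 in cadmium replicates 1 to 4 and 8.52 to 9.43 in controls. Every nickel array stood above every cadmium and control array, and the cadmium arrays lay within the range of the controls. The difference was 1.96 ± 0.13, or 3.90-fold (n = 4 arrays of each metal). Here and below ± is the SE of the fit, whose estimate of spread is shared by all conditions. SEs and intervals can be too narrow for genes that are uneven among the nickel arrays. In RNA from whole flasks, fewer cells with a transcript and less of it in each cell cannot be told apart. Pdk1, the kinase that turns off pyruvate dehydrogenase and so keeps pyruvate out of the mitochondria, had 11.06, 11.27, 10.68 and 10.79 in nickel and 8.92, 9.0, 8.91 and 9.07 in cadmium, against a control median of 9.03. Its groups were apart in the same way, with a difference of 1.98 ± 0.10.

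Among the glycolytic enzymes, Ldha and Tpi1 were even within each group. Ldha, which makes lactate, lay between 12.89 and 12.97 in nickel and between 11.65 and 11.85 in cadmium, a 2.28-fold difference. Tpi1, triosephosphate isomerase, lay between 13.51 and 13.55 in nickel and between 12.18 and 12.34 in cadmium. Pgk1, phosphoglycerate kinase, was 2.29-fold higher in nickel than in cadmium. The glycogen genes Gbe1, the branching enzyme, and Pgm1, phosphoglucomutase, were 2.70-fold and 2.42-fold higher. Outside the list used to check the order, Gpi, glucose-6-phosphate isomerase, was higher by 1.02 ± 0.07 (adjusted p = 1e-12). Eno2, an enolase of neurons that is also a HIF target, was higher by 1.06 ± 0.21 (adjusted p = 0.00011), but its call was lost without replicate 1 (0.93) or replicate 3 (1.00). Pfkl, the liver phosphofructokinase, had 10.60, 10.94, 10.58 and 9.21 in nickel against 8.74 to 9.52 in cadmium; replicate 4 overlapped, the adjusted p was 0.0021 and it was not called, whereas without nickel replicate 4 it differed by 1.61 (adjusted p = 0.0003). In the arrays of undisputed condition the list median was 1.19 and Slc2a1 differed by 2.33.

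Other hypoxia-inducible genes moved with them. Of 21 tested, 13 of them in the list used to check the order, 13 were higher in nickel and none lower, beside 1.15% of all genes higher. Only 1 of these calls, that of Tfrc, lay outside that list. The median was 1.09, which was 1.17 for nickel over controls and −0.12 for cadmium over controls (1.10 in the arrays of undisputed condition). Ero1a, the oxidase that drives disulphide formation in the endoplasmic reticulum (ER), had the largest difference towards nickel among the named genes, with 11.94, 11.81, 11.43 and 11.23 in nickel, against 9.01, 9.0, 8.8 and 8.8 in cadmium and 8.97 to 9.72 in controls. The difference was 2.70 ± 0.12, or 6.50-fold, and 2.93 in the arrays of undisputed condition. Adm, adrenomedullin, a vasodilator peptide, had 11.78, 11.59, 11.42 and 11.51 in nickel and 8.93, 9.03, 9.57 and 9.68 in cadmium, where the arrays fell inside the wide control range of 8.65 to 10.27. Apln, the peptide hormone apelin, was 5.11-fold higher in nickel than in cadmium. Ak4, a mitochondrial adenylate kinase, was 4.13-fold higher, and Ankrd37, an ankyrin repeat gene, 4.14-fold. Bnip3, a receptor for the removal of mitochondria, had 12.45 to 12.87 in nickel and 10.44 to 11.05 in cadmium, against controls at 10.91 to 12.11. The nickel arrays were all above the highest control. Ddit4, an inhibitor of the growth kinase mTOR, was 2.99-fold higher and Vegfa, the vascular growth factor, 1.94-fold. Another probe set of Vegfa differed by 0.68 and was not called. Mif, a cytokine that is a HIF target, is not among these calls. It is named for its difference, as 1 of the 8 highest outside the list used to check the order. Mif had 12.86, 12.95, 12.92 and 13.03 in nickel against 11.77, 11.96, 11.66 and 11.81 in cadmium. These groups were also clear of the controls at 12.03 to 12.32, nickel above and cadmium below, and the difference was 1.14 ± 0.07 (adjusted p = 1.2e-13).

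In several of these genes cadmium itself was below the controls, which widened the gap. Ankrd37 differed from controls by 1.27 in nickel and −0.78 in cadmium, Apln by 1.70 and −0.66, Ak4 by 1.45 and −0.59, and Ero1a by 2.21 and −0.49. Of the 245 probe sets higher in nickel, the control mean lay below the cadmium mean in 51 and above the nickel mean in 9, and it lay between the metals in the rest.

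**Figure D2:**
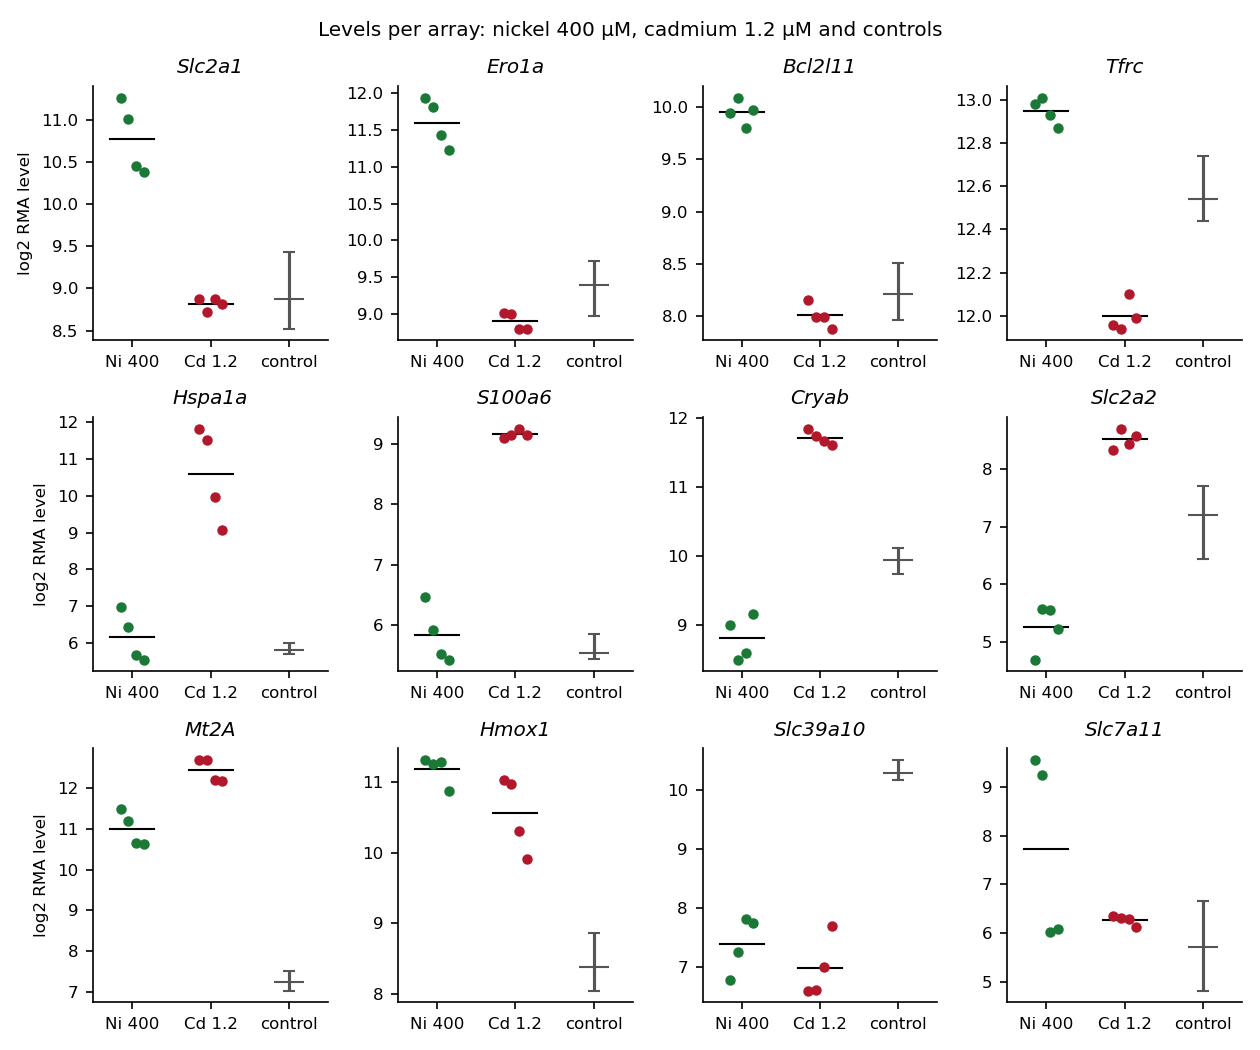
Log2 RMA level (vertical axes) of 12 genes in each nickel 400 µM and each cadmium 1.2 µM array (points, replicates 1 to 4 from left to right, bar at the mean) and in the 8 controls (bar at the mean, whiskers at the lowest and highest array). Nickel stands apart in Slc2a1, Ero1a and Bcl2l11, cadmium in Hspa1a and S100a6, and all 3 groups in Tfrc, Cryab and Slc2a2, while both metals leave the control range in Mt2A, Hmox1 and Slc39a10; Slc7a11 is high in nickel replicates 1 and 2 only.

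Some of the dioxygenases that use iron and 2-oxoglutarate were among the nickel genes. Of 33 tested dioxygenases, 7 of them in the list used to check the order, 8 were higher in nickel and none lower. Of these calls 3 lay outside that list, and 1.15% of all genes were higher. The median was 0.30. Egln3 and Egln1, the prolyl hydroxylases that act on HIF, differed by 2.11 ± 0.12 and 1.46 ± 0.16. Egln3 had 10.67, 10.60, 10.34 and 10.28 in nickel, against 8.58, 8.27, 8.23 and 8.36 in cadmium and 8.05 to 9.28 in controls. Its groups were well apart. Egln1 had 10.70, 10.60, 10.01 and 9.49 in nickel, against 8.66 to 8.83 in cadmium, and so was uneven among the nickel arrays, all of them above cadmium. P4ha1, which hydroxylates collagen, was 3.30-fold higher, Kdm3a, a histone demethylase, 2.84-fold, and Jmjd6, a JmjC protein, 2.22-fold. Alkbh5, an RNA demethylase, was not in the list used to check the order and was 2.06-fold higher in nickel (difference 1.04 ± 0.06, adjusted p = 1.3e-14). It moved both ways from the controls, by 0.56 in nickel and −0.48 in cadmium. The 4 other probe sets of Alkbh5 differed by 0.35 to 1.04 and none of them was called.

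The promoters of the nickel genes were examined for the core of the hypoxia response element, ACGTG, searched on both strands so that CACGT counts as well, and CACGTG counts once per gene. RefSeq sequences on the build GRCr8 were found for 25 of the 30 listed hypoxia, glycolysis and dioxygenase genes that were higher in nickel. In the 250 bases before the start, ACGTG was present in 13 of 25 (52%), beside 24.1% of the promoters of 7545 tested genes and 17.6% of all 19005 protein-coding genes in the table. The alternative core GCGTG was present in 15 of 25 (60%), beside 47.1% and 31.7%. The 5 stretches below are shown because they carry the core in front of genes whose levels are given here, 5′ to 3′ in the direction of the gene, with each core in capitals.
Slc2a1: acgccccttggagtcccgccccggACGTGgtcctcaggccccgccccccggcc
Ldha: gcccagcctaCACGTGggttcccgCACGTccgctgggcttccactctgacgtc
Bnip3: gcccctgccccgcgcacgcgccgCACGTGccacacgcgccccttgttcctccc
Ankrd37: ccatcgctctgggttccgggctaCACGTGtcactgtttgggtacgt
Eno2: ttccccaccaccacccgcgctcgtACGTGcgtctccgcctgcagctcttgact
They lie at chr5:138002447-138002499 on the plus strand, chr1:106507995-106508047 on the plus strand, chr1:203155032-203155084 on the minus strand, chr16:53001461-53001506 on the plus strand and chr4:159267331-159267383 on the minus strand. The core nearest to the start begins 51 bases before it in Slc2a1, 73 in Ldha and 22 in Ankrd37. Ldha has 3 matches in the window, counting both strands, and Slc2a1 and Eno2 have 1 each. A match is a description of the sequence and no measure of binding. The 25 genes come from lists that hold known hypoxia-inducible genes. A share above that of other promoters could therefore be found whatever these arrays show. The share in listed genes that were not called was not counted, so the core is not tied here to the level in nickel.

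Nickel also stood above cadmium in a gene of apoptosis and a gene of iron uptake. Bcl2l11, which encodes the pro-apoptotic protein BIM, had 9.94, 10.09, 9.80 and 9.97 in nickel, against 8.16, 7.99, 7.99 and 7.88 in cadmium and 7.96 to 8.51 in controls. No other listed apoptosis gene but Bnip3 was higher in nickel, and 3 were lower (2 and 3 of 31 called, beside 1.15% and 2.38% of all genes). The difference was 1.95 ± 0.08, while a second probe set of the gene differed by 0.78 and was not called. The transferrin receptor Tfrc, through which cells take up iron, lies outside the list used to check the order and is also counted above among the hypoxia-inducible genes. It had 12.98, 13.01, 12.93 and 12.87 in nickel, against 11.96, 11.94, 12.10 and 11.99 in cadmium and 12.44 to 12.74 in controls. All 3 groups were apart, nickel highest and cadmium lowest. The metals differed by 0.95 ± 0.08 (adjusted p = 1.2e-11), and with 1 probe set per gene Tfrc was the only 1 of 20 tested heme and iron genes to be called, beside 3.53% of all genes. Slc40a1, the iron exporter ferroportin, was above controls by 1.06 in nickel and 0.30 in cadmium, and the 2 metals differed by 0.76 (95% CI 0.55 to 0.97), under the fold threshold. Its other 2 probe sets differed by 0.86, which was called, and by 0.40, which was not.

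Glutathione genes were split. Of 34 tested NRF2 targets, 3 were higher in nickel and 1 lower, beside 1.15% of all genes higher and 2.38% lower. The list lay above controls in both metals (medians 0.34 in nickel and 0.29 in cadmium). Gclc and Gclm, the subunits of the enzyme that starts glutathione synthesis, were 1.83-fold and 1.95-fold higher in nickel, where they differed from controls by 0.94 and 1.03, against 0.06 and 0.07 in cadmium. Another probe set of Gclc differed by 0.76 and was not called. In the arrays of undisputed condition the called probe set of Gclc differed by 0.81. Slc7a11, the cystine importer, had 9.56, 9.24, 6.02 and 6.09 in nickel, against 6.36, 6.31, 6.30 and 6.12 in cadmium and 4.82 to 6.67 in controls. Only nickel replicates 1 and 2 were high, and the mean difference of 1.46 ± 0.32 was no longer called without replicate 1 (0.87) or without replicate 2 (0.96). Chac1, which breaks glutathione down, rose against cadmium by 1.13 ± 0.19 (adjusted p = 1.4e-05) with 10.13, 10.32, 10.39 and 10.39 in nickel and 9.28, 9.07, 9.17 and 9.16 in cadmium. The control median of 10.18 was close to nickel, so here it was cadmium that lay apart. Txnrd1, thioredoxin reductase, was above controls by 1.00 in nickel and 0.43 in cadmium without a call between the metals (difference 0.56, 95% CI 0.39 to 0.74). Abcc2, a bile canalicular export pump, was the NRF2 target that ran the other way, 2.41-fold lower in nickel, at −0.28 from controls in nickel and 0.99 in cadmium; in the arrays of undisputed condition it differed by −0.60.

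The heat shock chaperones held the largest single difference, in favour of cadmium. Of 32 tested cytosolic and mitochondrial chaperones and co-chaperones, 4 were lower in nickel than in cadmium and none higher, beside 2.38% of all genes lower. The list median was −0.21 (0.11 for nickel over controls and 0.31 for cadmium over controls). Hspa1a, the inducible HSP70, had 6.97, 6.44, 5.67 and 5.55 in nickel, against 11.82, 11.52, 9.97 and 9.06 in cadmium and 5.70 to 6.0 in controls. Nickel replicates 1 and 2 were above the controls and replicates 3 and 4 just below their lowest array, and every cadmium array was far above. The difference was −4.43 ± 0.30, and −5.08 in the arrays of undisputed condition. The controls and nickel replicates 3 and 4 lay under 6.01, the level that a probe set had to reach in every array of at least 1 condition to be tested, so no fold is given. Another probe set, shared with a near-identical HSP70 gene, is not named for 1 gene here. Cryab, the small heat shock protein alpha-B crystallin, moved in opposite directions: 9.0, 8.50, 8.60 and 9.17 in nickel, against 11.85, 11.74, 11.67 and 11.61 in cadmium and 9.75 to 10.12 in controls. Its groups were all apart, with nickel below and cadmium above the controls (−1.13 and 1.77). Dnaja4, an HSP40 co-chaperone, was 2.45-fold lower in nickel than in cadmium, and Bag3, a co-chaperone of HSP70 in the clearance of damaged proteins, 1.93-fold. Neither mean was below the controls in nickel: Dnaja4 differed from controls by 0.49 in nickel and 1.78 in cadmium, and Bag3 by 0.32 and 1.27.

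The response was not shared by all chaperones. Hsph1, an HSP110, differed by only −0.18 (95% CI −0.46 to 0.09, adjusted p = 0.28). Hspb8, a small heat shock protein that works with Bag3, was above controls in both metals, by 0.93 in nickel and 1.16 in cadmium, with a difference of −0.23 (95% CI −0.52 to 0.06) that was 0.41 in the arrays of undisputed condition. Dnajb1, an HSP40, had 9.46, 9.0, 8.78 and 9.07 in nickel and 10.20, 9.85, 9.12 and 9.07 in cadmium, and its groups met. The call of Bag3 was lost without replicate 2 (−0.87) or without nickel replicate 4 (−0.82). Among 32 tested ER chaperones and folding enzymes only Ero1a was called, beside 3.53% of all genes. Dnajc3, an ER-stress inhibitor of eIF2-alpha kinases, was above controls by 0.77 in nickel and 1.18 in cadmium. The heat shock element, as GAANNTTC or TTCNNGAA with each pattern its own reverse complement, was found in the 250 bases before the start of 1 of 3 of these chaperones with a sequence, Bag3, beside 6.56% and 6.71% of all promoters. It is shown with its match in capitals, chr1:192533304-192533359 on the plus strand.
Bag3: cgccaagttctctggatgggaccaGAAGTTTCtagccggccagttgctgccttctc

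S100a6, S100g, Lgals4 and Clu were among the 12 genes farthest below cadmium in nickel, by which they are named here. S100a6, a small calcium sensor, had 6.46, 5.93, 5.52 and 5.43 in nickel, against 9.09, 9.14, 9.25 and 9.15 in cadmium and 5.44 to 5.86 in controls. The cadmium arrays lay within a narrow band far above all others, with a difference of −3.32 between the metals. The controls and 3 of the 4 nickel arrays lay under the filter value, so no fold is given. S100g, a calcium-buffering relative, had 4.37 to 4.62 in nickel and 6.48 to 6.98 in cadmium, with controls at 4.15 to 4.8, a level at the low end of the array's scale. It was tested only through its level in cadmium, so its call is no support for a count. S100a11, chosen after its values were seen, was 4.27-fold lower in nickel than in cadmium, at 0.49 from controls in nickel and 2.58 in cadmium. Its nickel arrays ran from 8.24 to 10.71, and the difference between the metals was −1.29 in the arrays of undisputed condition, beside −2.09 over all 8. Lgals4, galectin-4, differed by −2.74, with 3 of its nickel arrays under the filter value. Lgals9, galectin-9, lies outside the list used to check the order and fell by 1.34 in nickel against cadmium (SE 0.11, adjusted p = 2.8e-11), the controls lying midway. Clu, clusterin, an extracellular chaperone of plasma, had 9.66, 9.81, 10.15 and 10.19 in nickel, against 12.36, 12.09, 12.46 and 12.33 in cadmium and 10.02 to 10.13 in controls. Nickel stayed around the controls and cadmium was 4.77-fold above them. Capg, an actin-capping protein, was the only 1 of 27 tested actin cytoskeleton genes to be called, beside 3.53% of all genes. It was 2.83-fold lower in nickel than in cadmium, at −0.25 from controls in nickel and 1.25 in cadmium.

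Stress and growth-arrest genes were called in both directions. Gdf15, a secreted stress cytokine, had 8.06, 8.29, 7.45 and 7.67 in nickel, against 9.96, 10.05, 10.57 and 11.65 in cadmium and 7.64 to 9.65 in controls. The lowest cadmium array was above the highest control. The difference was −2.69 ± 0.38, or −1.69 in the arrays of undisputed condition. Of 33 tested ATF4 and CHOP stress genes, 3 were lower in nickel (Gdf15, Ddit3 and Ppp1r15a) and 3 higher (Slc7a11, Chac1 and Nupr1). Of all genes 2.38% were lower and 1.15% higher. Ddit3, the transcription factor CHOP, had 9.32, 9.09, 7.97 and 8.86 in nickel and 9.79 to 10.53 in cadmium, against 7.39 to 8.60 in controls. Nickel replicate 3 lay within the controls and the other 3 above them. Ppp1r15a, a phosphatase subunit that restarts translation after stress, was 1.96-fold lower in nickel than in cadmium, at 0.61 from controls in nickel and 1.58 in cadmium. The metals differed by only −0.54 in the arrays of undisputed condition, and the call was lost without replicate 3 (−0.79) or 4 (−0.80). Nupr1, a stress-induced chromatin protein, was 1.87-fold higher in nickel. Gadd45a, a growth-arrest gene, had 9.06, 8.71, 7.13 and 7.72 in nickel and 10.44, 9.79, 10.07 and 9.88 in cadmium, against 7.18 to 7.89 in controls. It was 3.71-fold lower in nickel. With Ccng1, a cyclin of the p53 pathway, it made up the 2 calls among 16 tested p53 targets. Both calls were lower in nickel, as were 2.38% of all genes. Ccng1 had 10.64, 10.28, 8.82 and 9.20 in nickel, so that replicates 3 and 4 lay below all controls (9.77 to 10.35) and replicates 1 and 2 did not, and its difference of −1.18 was −0.53 in the arrays of undisputed condition. Cdkn1a, the cell cycle inhibitor p21, was not called (difference −0.69, 95% CI −1.11 to −0.28, adjusted p = 0.006), and differed by −0.09 in the arrays of undisputed condition. Casp4, an inflammatory caspase, was 3.07-fold lower in nickel, at −0.04 from controls in nickel and 1.58 in cadmium.

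Of 21 tested metallothionein and zinc transporter genes, Mt2A and Slc30a2 were lower in nickel than in cadmium and none higher, beside 2.38% of all genes lower. The list median over controls was 0.05 in nickel and 0.11 in cadmium. Mt2A, a metallothionein, had 11.48, 11.18, 10.66 and 10.63 in nickel, against 12.70, 12.69, 12.20 and 12.18 in cadmium and 7.02 to 7.50 in controls. Both groups were far above the controls, 13.5-fold in nickel and 37.1-fold in cadmium, and did not overlap each other, with a difference of −1.45 ± 0.24. Mt1 had 5.94, 6.4, 5.85 and 5.65 in nickel and 6.33, 8.03, 6.29 and 6.38 in cadmium, and overlapped. Slc30a2, a vesicular zinc transporter, was 2.60-fold lower in nickel than in cadmium, at 0.73 from controls in nickel and 2.11 in cadmium. It was tested only through the arrays in which it is high and was left out by a filter on the mean over all arrays, so its call is no support for the count. Slc30a1, the zinc exporter of the plasma membrane, was above controls by 1.98 in nickel and 2.72 in cadmium without a call (difference −0.74, 95% CI −1.20 to −0.28). The zinc importer Slc39a10 was below controls by about the same amount in both, −2.89 in nickel and −3.30 in cadmium (difference 0.42, 95% CI 0.05 to 0.79), and the importer Slc39a4 by −1.83 in nickel and −1.41 in cadmium. The core of the metal response element, searched as TGCNCNC on both strands, is common, in 46.6% of all promoters, and was found 5 times in the 250 bases before Mt2A. The match nearest to the start is shown in capitals, chr19:10838733-10838787 on the minus strand.
Mt2A: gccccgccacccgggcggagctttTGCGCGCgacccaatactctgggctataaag

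Several other stress genes were high in both metals with no call between them. Hmox1, heme oxygenase, had 11.31, 11.25, 11.28 and 10.87 in nickel, against 11.02, 10.97, 10.30 and 9.91 in cadmium and 8.05 to 8.86 in controls. All 8 exposed arrays were above the controls, and the difference between the metals was 0.63 (95% CI 0.21 to 1.05). Jun differed by 0.07 (95% CI −0.32 to 0.45), at 1.67 over controls in nickel and 1.60 in cadmium. Other probe sets of Jun differed by 0.57 and by 0.07, neither of them called. Atf3, a stress transcription factor, was over controls by 2.55 in nickel and 3.25 in cadmium (difference −0.70, 95% CI −1.37 to −0.03). The difference of Atf3 was −0.16 without replicate 3 and 0.23 in the arrays of undisputed condition. Sqstm1, the autophagy receptor p62, differed by 0.16 (95% CI 0.05 to 0.27, adjusted p = 0.014). Its other probe set differed by −0.03, at 0.95 over controls in nickel and 0.98 in cadmium. These intervals leave room for differences between the metals of the sizes they span.

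Several liver genes that were lower in nickel than in cadmium lay below the controls in nickel. Slc2a2, the hepatocyte glucose transporter GLUT2, had 4.69, 5.58, 5.55 and 5.22 in nickel, against 8.34, 8.71, 8.45 and 8.58 in cadmium and 6.44 to 7.72 in controls. All 3 groups were apart, nickel below and cadmium above the controls, with a difference of −3.26 ± 0.15. The nickel arrays lay under the filter value, so no fold is given. The levels of the 2 glucose transporters thus ran in opposite directions in nickel. Aldh1a1, a retinaldehyde dehydrogenase outside the list used to check the order, had 5.09, 5.00, 5.91 and 5.76 in nickel and 7.24, 6.96, 7.15 and 7.27 in cadmium, against 5.99 to 7.52 in controls. It fell by 1.72 in nickel against cadmium (SE 0.22, adjusted p = 1.8e-07), the cadmium arrays lying inside the control range. Acot2, a mitochondrial thioesterase of fatty acid metabolism, was lower in nickel than in cadmium by 1.39 (SE 0.10, adjusted p = 1.3e-12). It was at −0.76 from controls in nickel and 0.63 in cadmium, and its other 2 probe sets differed between the metals by −1.40 and −1.44. Acot4, a peroxisomal relative, was lower in nickel than in cadmium by 1.29 (SE 0.20, adjusted p = 2.3e-06), at −0.83 from controls in nickel and 0.46 in cadmium. Of 41 tested fatty acid genes, 3 were lower in nickel and none higher, with a median of −0.31, beside 2.38% of all genes lower. The other 2 were Cpt1a, which brings fatty acids into mitochondria (8.20, 8.63, 9.93 and 10.18 in nickel against 10.04 to 10.57 in cadmium), and Fabp1, the liver fatty acid carrier (5.28, 5.53, 9.13 and 9.68 in nickel against 7.39, 7.93, 9.44 and 9.97 in cadmium). Both overlapped, with nickel replicates 1 and 2 lowest. Without replicate 1 neither was called (−0.82 and −1.0), and without replicate 2 Fabp1 was not called (−0.91).

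Other hepatocyte genes were also uneven among the nickel arrays. Mat1a, the liver methionine adenosyltransferase, had 7.05, 7.41, 8.52 and 8.57 in nickel against 8.93, 9.06, 9.18 and 9.26 in cadmium and fell by 1.22 (SE 0.21, adjusted p = 1.5e-05), with adjusted p = 0.0017 without replicate 2. Nr1h4, the bile acid receptor FXR, fell by 0.91 (SE 0.13, adjusted p = 5.4e-07). Without replicate 1 (−0.80) or replicate 2 (−0.85) it did not reach the fold threshold, which is 0.848 on the log2 scale. Hao1, a peroxisomal oxidase of glycolate, was below controls in both metals, by −2.09 in nickel and −1.10 in cadmium, and 1.98-fold lower in nickel, a call lost without replicate 1 (−0.88). Fgg, a fibrinogen chain, had 9.08, 9.82, 10.68 and 11.08 in nickel against 11.08 to 11.25 in cadmium, fell by 0.97 (adjusted p = 0.00045) and lost its call without replicate 1 (−0.62), 2 (−0.86) or 3 (−1.16). Afp, alpha-fetoprotein, was 2.57-fold lower in nickel, a call that was lost without replicate 2 (−1.28, beside −1.36). Ttr, transthyretin, had 8.73, 9.42, 11.42 and 11.44 in nickel and 11.22 to 11.43 in cadmium, so that 2 nickel arrays were far below and 2 level with cadmium. Egr1, an immediate early gene, was similar, with 7.64, 7.86, 9.90 and 9.83 in nickel and 10.69, 10.38, 9.91 and 9.40 in cadmium. Its difference was −1.29 (adjusted p = 0.00063), but −0.70 without replicate 1 and −0.88 without replicate 2, neither called. Plasma protein genes did not all fall: C3, the central complement component, was 2.28-fold higher in nickel. Of 32 tested complement and coagulation genes 2 were higher and 3 lower, beside 1.15% and 2.38% of all genes. Plg, plasminogen, and Tat, tyrosine aminotransferase, were 2.42-fold and 1.93-fold higher in nickel, with cadmium below controls (−1.65 and −0.99) and nickel near them (−0.37 and −0.04). Without replicate 3 Tat was not called (0.86).

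Of 40 tested proteasome genes, 2 were called, beside 3.53% of all genes, Psmb8 and Psmb9, the catalytic subunits that replace the standard ones when antigens are processed, and both were lower in nickel. Psmb8 had 7.17, 7.20, 7.53 and 7.93 in nickel, against 8.73, 8.71, 8.54 and 8.63 in cadmium and 8.15 to 8.65 in controls. The nickel arrays were all below the controls. Psmb9 had 7.34, 7.77, 8.04 and 8.28 in nickel against 8.66, 8.85, 8.63 and 8.84 in cadmium and fell by 0.89 (SE 0.11, adjusted p = 1.2e-07); without replicate 1 it differed by −0.75 and without replicate 2 by −0.83, under the fold threshold. The third such subunit, Psmb10, and the activator subunit Psme2 differed by −0.84 (adjusted p = 1.2e-07) and −0.76 (adjusted p = 0.00012), also under it. Sting1, which acts in the innate immune response to cytosolic DNA, was chosen after its values were seen. It was lower in nickel than in cadmium by 1.23 (SE 0.10, adjusted p = 1.4e-11), at −0.67 from controls in nickel and 0.56 in cadmium. The median of the proteasome list was −0.28, with nickel at −0.02 and cadmium at 0.26 from controls. Of the 40 genes 36 had a difference below 0.

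Genes of DNA replication lay lower in nickel as a list, with a median of −0.51, beside −0.08 over all genes, and 44 of 47 differences below 0, but only 5 were called (2.38% of all genes were called lower). Nickel was at −0.34 and cadmium at 0.19 from controls. The probe set of Tk1, thymidine kinase, with the highest mean level lies outside the list used to check the order. It had 7.44, 7.66, 7.55 and 7.32 in nickel, against 8.60, 8.46, 8.54 and 8.41 in cadmium and 7.70 to 8.54 in controls. Every nickel array was below every control, and the difference was −1.01 ± 0.10 (adjusted p = 2.1e-09). Another Tk1 probe set, inside that list, differed by −1.41 and was called, and another outside it differed by −0.27 and was not. Tyms, thymidylate synthase, was 1.94-fold lower and Pcna, the sliding clamp, 1.84-fold lower in nickel; without replicate 3 Pcna differed by −0.81 and was not called. Nhej1, which joins broken DNA ends, is not in the DNA replication list and is named as 1 of the 8 lowest outside the list used to check the order. It was lower in nickel than in cadmium by 1.34 (SE 0.16, adjusted p = 4.1e-08), at −0.61 from controls in nickel and 0.73 in cadmium. Its nickel arrays (6.14 to 6.49) overlapped the controls (6.23 to 7.57). The call was lost without the replicate block (adjusted p = 0.0013 in limma). None of 33 tested mitosis genes and none of 57 respiratory chain genes was called at this threshold in limma, although 51 of the 57 respiratory chain genes had a difference below 0, with a median of −0.25.

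**Figure D3:**
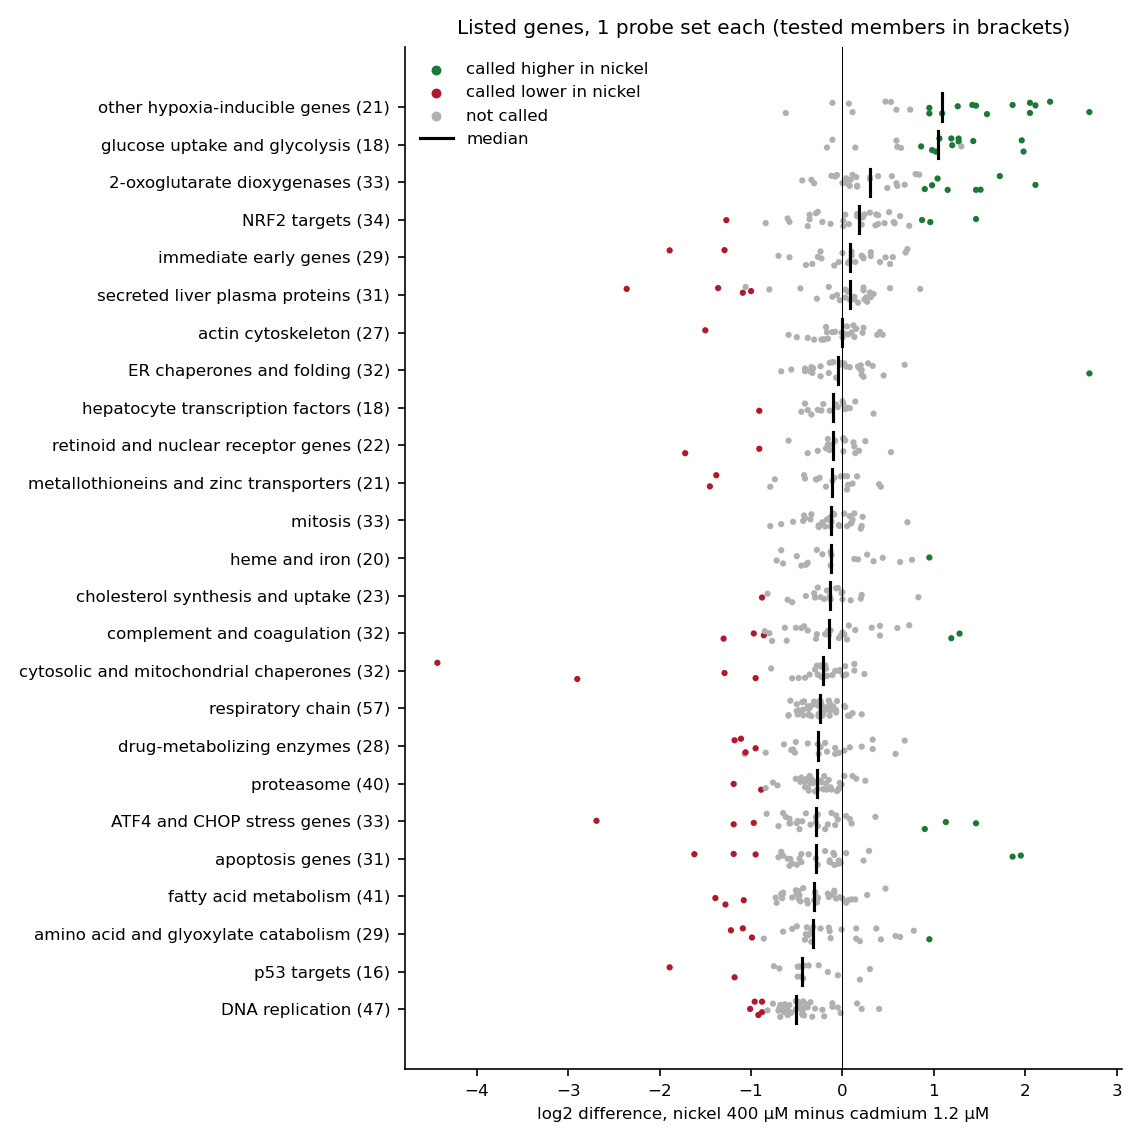
Log2 difference, nickel 400 µM minus cadmium 1.2 µM (horizontal axis), of every tested member of 25 gene lists (rows, 1 probe set per gene, coloured by call), with the list median as a bar. The 2 hypoxia and glycolysis lists have medians of 1.09 and 1.04, and DNA replication has the lowest, −0.51; calls lower in nickel are spread over many lists.

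The named genes were followed to the lower concentrations as a description, without a test. At nickel 40, 140 and 400 µM the mean level of Slc2a1 was 8.74, 9.96 and 10.78, and of Ero1a 9.47, 10.64 and 11.60. Both were close to the control means of 8.88 and 9.39 at the lowest concentration. Bnip3 reached 12.53 at 140 µM and 12.62 at 400 µM, so it had nearly its full level at the middle concentration, while Bcl2l11 had a higher mean at each step (8.24, 8.98 and 9.95). At cadmium concentrations of 0.2 µM, of 0.55 µM and of 1.2 µM the mean of Hspa1a was 5.84, 6.85 and 10.59, of S100a6 5.54, 6.86 and 9.16, and of Clu 10.27, 11.05 and 12.31. None of these cadmium genes left its control mean by more than 0.3 at any nickel concentration except Hspa1a at 400 µM (0.34). Mt2A had 7.76, 7.93 and 10.99 over the nickel concentrations and 7.37, 8.79 and 12.44 over the cadmium concentrations, with a control mean of 7.23. Most of its increase lay between the middle and the highest concentration of either metal.

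**Figure D4:**
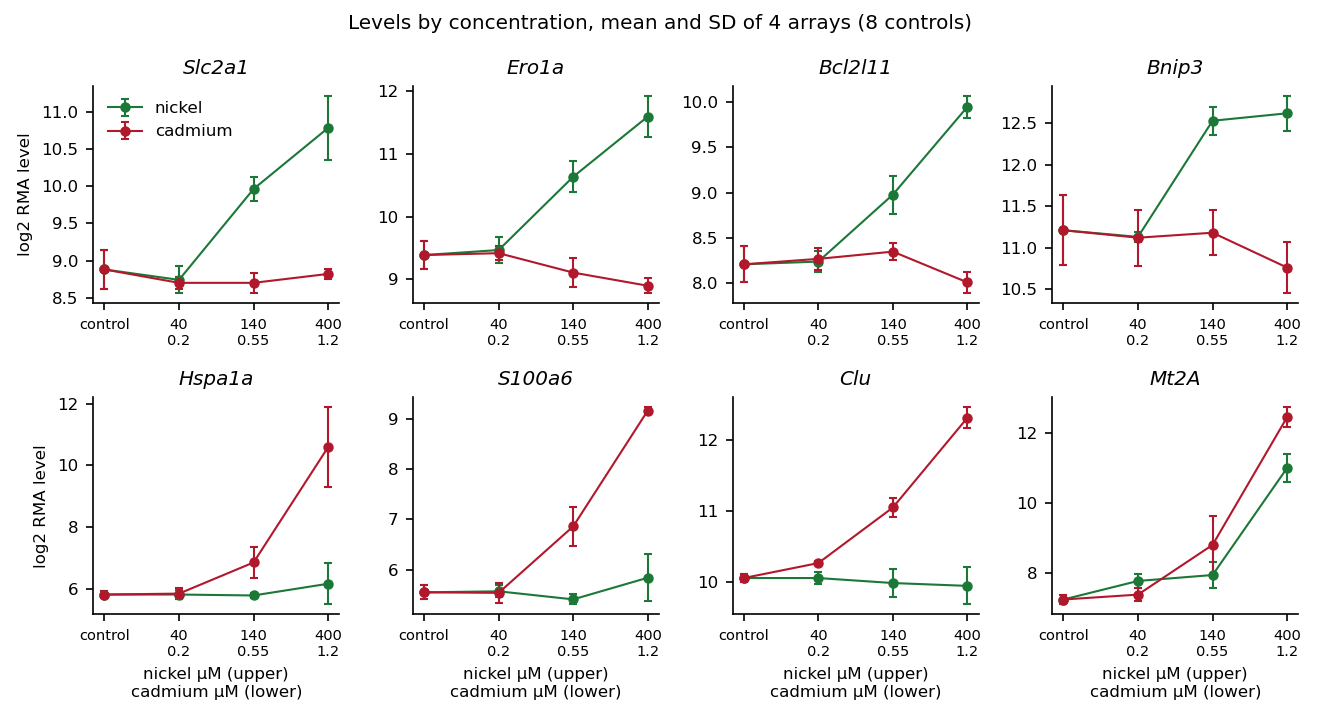
Mean log2 RMA level (vertical axes) of 8 genes in controls and at the 3 concentrations of nickel and of cadmium (horizontal axes, evenly spaced steps, not to scale), with SD over 4 arrays (8 for controls). The upper 4 genes follow nickel and show no such rise in cadmium. At the highest cadmium concentration Ero1a and Bnip3 differ from controls by −0.49 and −0.44. Hspa1a, S100a6 and Clu follow cadmium, and Mt2A follows both.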

How the data were processed

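Total RNA was hybridised to Affymetrix rat genome arrays. The deposited log2 values were made by the authors with robust multi-array averaging (RMA) in Partek, which corrects background, normalizes between arrays and summarizes probes; levels of different probe sets are not compared. Of 31099 probe sets, 57 were controls of the array; of the rest, 20826 name 1 gene, 436 several and 9780 none. In place of detection calls, the 15521 probe sets with the highest lowest-array value in at least 1 condition were tested, the lowest such value being 6.01.

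Titles were put in series order with the 4 repeated arrays last and given to the columns in turn, as the opening describes; the titles as deposited were run as an alternative. A fit with limma 3.58.1 in R 4.3.3 had condition and replicate number as terms, over 36 exposed arrays and the mean of each replicate's 2 controls (27 residual degrees of freedom). The methods name batch as a term and fit each metal alone, without this contrast. Same-numbered nickel and cadmium arrays deviated together (r = 0.34, 0.34, 0.18 and 0.33 across probe sets). The fit was also run on simulated data with independent noise of the same spread in every condition. That setting has neither the shared deviations of same-numbered arrays nor the uneven nickel arrays, so nothing is drawn from it. No other contrast was tested, and the number of arrays limits the precision.

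Members, gene lists and the rule for named genes (the 12 largest differences each way, the 8 each way outside the list used to check the order, up to 6 per gene list, and genes the study names) were chosen with earlier results of these data known. Not every gene of the rule is printed, and Sting1, Gpi, Vegfa, Ddit4, Txnrd1, Hsph1 and S100a11 fall outside it. The 25 lists are described by counts and medians. Not analysed here were the chromium arrays other than in the fit, and the pathways and ontology groups of the study.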

Additional observations from a re-analysis of the deposited data

Results flagged for a closer look

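In 6 of 196 groups of 4 arrays of the named genes, 1 array stood apart from the other 3 by more than the Dixon critical value for 4 values, which chance gives in about 1 of 20 groups. In cadmium, S100a11 was 11.75 in replicate 1 and 11.39 to 11.42 in the others. Ddit3 was 10.53 in cadmium replicate 1 and 9.79 to 9.88 in the others. Mt1 was 8.03 in cadmium replicate 2, against 6.29 to 6.38. Idi1, an enzyme of isoprenoid synthesis, was 11.13 in cadmium replicate 2 and 10.84 to 10.89 elsewhere, and Sqstm1 was 12.42 in cadmium replicate 3 and 12.31 to 12.32 elsewhere. In nickel, Hmox1 was 10.87 in replicate 4, the repeated array, and 11.25 to 11.31 in replicates 1 to 3. All of these arrays were kept.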

How the results depend on the processing

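With the titles as deposited, 0 probe sets were called, 0 higher and 0 lower, in limma (3459 with an unadjusted p under 0.05), and 7 called genes among those named changed sign, to −0.11 for Plg, 0.26 for S100a11, 0.02 for Gadd45a, 0.08 for Ddit3, 0.43 for Ppp1r15a, 0.79 for Mt2A and 0.12 for Abcc2. So did 7 that were not called, to 1.04 for Atf3, 0.90 for Slc30a1, −0.75 for Slc39a10, 0.64 for Hspb8, 0.32 for Dnajc3, 0.23 for Cdkn1a and 0.04 for Hsph1. Every result of the report therefore rests on the order of the titles used. In the 3 arrays of the metals with the same condition in both orders, fitted with the other arrays of that kind, 955 probe sets were called, 386 higher and 569 lower in nickel (424 shared with the 526), and without the other 5 of the 8 arrays, an alternative added after seeing the data, 888, of which 338 were higher and 550 lower. Both of these fits hold 1 cadmium array of the highest concentration, which is assumed to vary like the other groups. Nothing is drawn from their counts or from the overlap. With only the 8 arrays (3 residual degrees of freedom), 194 were called, 106 higher and 88 lower, all among the 526. In that fit 35 named genes lost their call, Gdf15, Gadd45a, S100a11, Egln1, Vegfa, C3 and Casp4 among them. Without the replicate block 460 were called, 222 higher and 238 lower, all among the 526, and 16 named genes lost their call, Slc7a11, Chac1, Plg, Ddit3, Casp4 and Fabp1 among them. Leaving out each replicate gave 478 to 607 calls, 242 to 263 higher and 236 to 344 lower. The other alternatives (separate controls, other filters, centring, other variances) gave 490 to 567 calls. Under centring on array medians 288 were higher and 251 lower. No gene outside the 7 above that was called changed sign under any alternative. Detection calls were not used, so whether S100a6, S100g, Slc2a2, Aldh1a1, Sting1, Lgals9, Mt1 and Hao1, whose nickel means lay under the filter value of 6.01, and Hspa1a in controls and nickel replicates 3 and 4, stood above background there is not known.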
